A study of Homo sapiens with 9 samples.

Results

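Transcript levels were compared between H295R cells given angiotensin II and H295R cells given the vehicle, both for 3 h. H295R is a human adrenocortical carcinoma line, a single tumour-derived line that still makes steroid hormones. The comparison used 6 of the 9 arrays of the series, chosen by the agent named in the labels: 3 arrays of cells in dimethyl sulfoxide (DMSO), for which no dose is given, and 3 arrays of cells in 100 nM angiotensin II. The other 3 arrays, of cells in 100 nM of the test compound CP-529414 (torcetrapib), which blocks cholesteryl ester transfer protein, are in no group compared here, but entered the estimate of variance and the 9-array mean level that chose each gene's probe set. The question behind the series was whether inhibitors of this kind activate the renin-angiotensin-aldosterone system in cells of adrenal origin, and angiotensin II is that system's own hormone. The series' design text lists angiotensin II itself among such inhibitors, which the sample labels do not; the labels were followed. Values are the deposited log2 signals from RMA, a robust summary of the probes of each set. In all 19775 genes were tested, each by its brightest probe set with a single symbol.

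Angiotensin II acts on adrenocortical cells through the type 1 receptor, AGTR1, which couples to Gq and phospholipase C, releases calcium from internal stores and activates protein kinase C and the ERK cascade. Within hours these signals switch on immediate early transcription factors, and with them feedback inhibitors, RNA-binding proteins and secreted ligands that shape the later response. Aldosterone output over the first hours rests largely on cholesterol delivery to mitochondria, and transcription of the late enzymes follows more slowly.

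The median probe set of the 6 arrays lay between 5.539 and 5.605, and Pearson's r between arrays of 1 group was 0.9964 to 0.9982 (computed over genes, not independent points). No label states whether a group's arrays stem from different cultures; p-values therefore reflect only how far these arrays spread, which may be technical, and 3 arrays a group limit the precision. The serial numbers in the titles run together within each group, so processing order and treatment cannot be told apart. The control index of RNA quality (5′ minus 3′ signal of ACTB and GAPDH) was -0.50 ± 0.22 (SD, n = 3) with DMSO and -0.62 ± 0.02 with angiotensin II, and an exact two-sided permutation test gave p = 0.5, where 0.1 is the smallest p this design allows. Of the adrenal cortex markers, 11 of 14 measured lay above the median gene, among them NR5A1, STAR, CYP11A1 and CYP17A1, so the labelled cell type had its defining markers. None of 8 endothelial markers did, and only HBB of 9 blood markers, COL1A1 and ACTA2 of 10 fibroblast and smooth muscle markers, CHGA, CHGB and GATA2 of 11 adrenal medulla markers, and SFTPC, SFTPB and KRT10 of 20 markers of other organs. The mean level of the medulla list ran from 5.46 to 5.60 over the DMSO arrays and from 5.57 to 5.60 over the angiotensin II arrays, and SCG2 was its only member to change (0.58 higher on the log2 scale). In bulk RNA, fewer cells of a type and less RNA per cell cannot be told apart.

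At an adjusted p of 0.05 (limma, Benjamini-Hochberg), angiotensin II raised 665 of the genes tested (3.36%) and lowered 545 (2.76%). The rises were larger than the falls. At least 2-fold changes numbered 113 rises, 0.571% of the genes tested, and 12 falls, 0.0607%. At 1.5-fold or more there were 238 rises and 92 falls, so that 880 of the 1210 changes, or 72.7%, were smaller than that. The median rise was 1.39-fold and the median fall 1.27-fold, about a median change over all genes of 0.01 on the log2 scale. The 3 angiotensin II arrays all lay on one side of the 3 DMSO arrays in 1199 of the 1210 genes, as they did in 17.6% of all genes tested. Counts of falls were the less steady: without DMSO replicate 3 there were 628 rises and 328 falls, while without DMSO replicate 2 the falls outnumbered the rises, 594 against 550, as they did without angiotensin II replicate 3, 631 against 540.

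**Figure D1:**
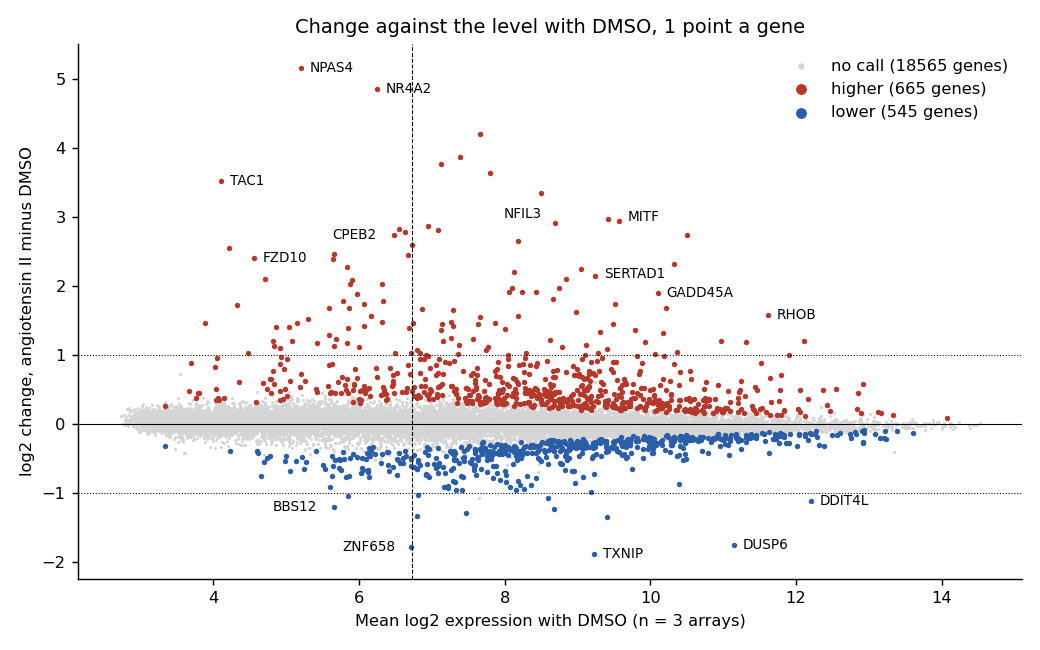
Each point is a gene, with its mean log2 signal on the 3 DMSO arrays on the x axis and its log2 change (angiotensin II minus DMSO) on the y axis; red and blue points passed an adjusted p of 0.05, dotted lines mark 2-fold and the dashed line the median gene at 6.72. Rises of more than 2-fold (113 genes) spread widely over the starting levels, whereas only 12 falls pass the lower dotted line.

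Calls were rare among dim probe sets. With the genes cut by mean level into 4 bins of about 4944, 17 rose and 11 fell in the dimmest bin, 96 and 73 in the next, 232 and 203 in the one above and 320 and 258 in the brightest. The smallest rise called was 0.257 on the log2 scale in the dimmest bin and 0.0882 in the brightest, so a change of a given size was called more readily in bright genes. A probe set's signal also depends on its probes, so these levels describe the starting signal and not transcript abundance. The 113 genes that rose at least 2-fold started in the middle of the range: their median was 7.15 with DMSO, against 6.72 for all genes, and 9.08 with angiotensin II. With DMSO 47 of them lay below the median gene and 9 among the 4944 genes dimmest with DMSO, under 4.87. With angiotensin II 11 were left below the median gene. By mean level 2 of the 113 were in the dimmest bin. FZD10, a WNT receptor, was one that started low, at 4.61, 4.40 and 4.65 with DMSO, and reached 6.86, 6.71 and 7.31 with angiotensin II. RHOB, a small GTPase of the actin cytoskeleton, started among the brightest genes at 11.70, 11.49 and 11.65 and reached 13.21, 13.17 and 13.17. TAC1, the precursor of substance P, started under 4.87 (4.02, 3.92 and 4.37) and reached 7.71, 7.28 and 7.89.

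Sorted by their known roles after their values had been seen, and so with no test, the 113 strong rises held 19 of the immediate early transcription factors and 94 other genes. The 15 other transcription factors and cofactors were MITF, NFIL3, CREB5, FOXQ1, MXD1, ZNF697, ZNF331, KLF9, VDR, NAB2, DLX2, SALL1, CITED2, SERTAD1 and MIDEAS. A second set of 16 were kinases and brakes on signalling: SIK1, TRIB1, SPRY2, ERRFI1, DUSP1, DUSP2, IER3, SOCS1, SOCS3, PDE4B, GEM, NRARP, PTPRH, PMEPA1, PIM1 and PIM3. Ligands and matrix proteins numbered 12 (HBEGF, LIF, TAC1, CCN1, CCN2, INHBA, BDNF, METRNL, DKK1, NID1, ADAMTS1 and EFNB2), and receptors and surface proteins 9 (PTGER4, FZD10, LYVE1, F3, IL6R, TNFRSF12A, GPR3, CXADR and PAQR9). Proteins that bind, tail or process RNA numbered 8 (TENT5A, TENT5C, CPEB2, CPEB4, ZFP36, ZFP36L2, RBM24 and CLK1), and genes of growth arrest, stress and survival another 8 (GADD45A, GADD45B, GADD45G, PPP1R15A, MCL1, RGCC, VMP1 and TIPARP). The rest were 5 genes of the NF-kappa-B pathway, 6 of metabolism and transport, 4 of the cytoskeleton, 4 noncoding RNAs and 7 genes with no role assigned, such as C11orf96 and GCNA. Without _x_at and _s_at probe sets RGCC (adjusted p = 0.75), C11orf96 (0.36) and MIDN (0.19) had no call. The same held for NR4A1 (0.080), SIK1 (0.37), TENT5A (0.60) and CXCL2 (0.95). Among the 12 strong falls, 4 were zinc finger factors (ZNF658, ZNF627, ZNF624 and ZSCAN2) and 2 were other transcription factors, HES1 and GATA3; the others were TXNIP, DUSP6, GTF2H2B, IFIT2, BBS12 and DDIT4L.

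**Figure D2:**
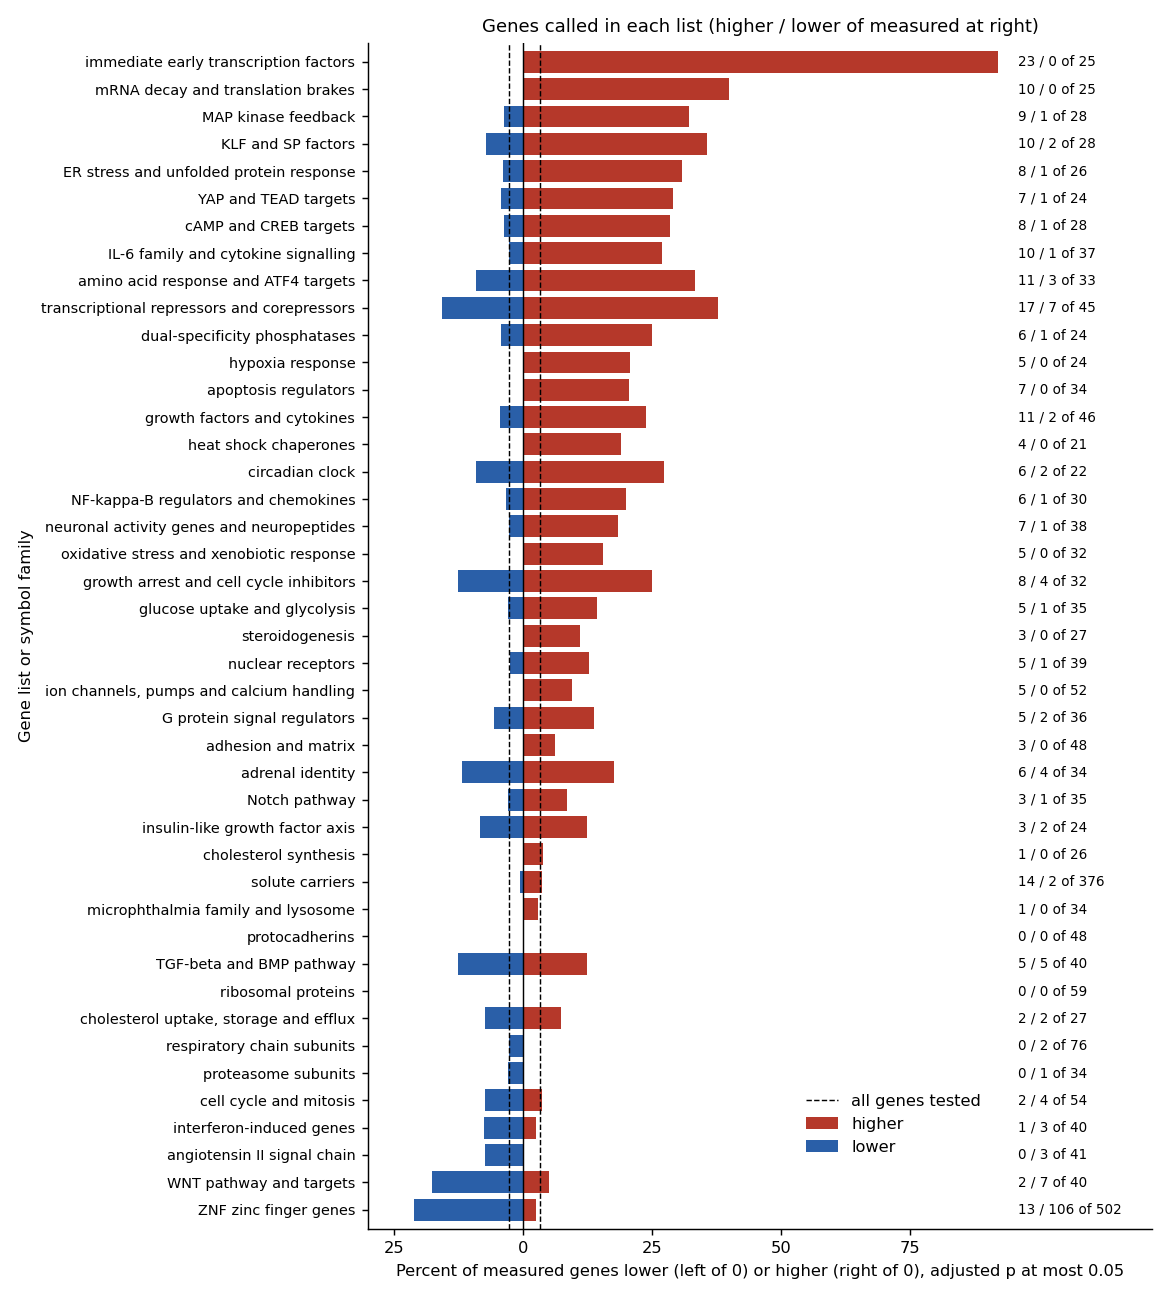
Bars show the percent of measured genes of each list or symbol family that rose (red, right of 0) or fell (blue, left of 0) with angiotensin II at an adjusted p of 0.05, the counts stand at the right, and dashed lines mark the 3.36% and 2.76% of all genes tested. Immediate early factors (23 of 25 higher) stand far to the right, ribosomal proteins and protocadherins have no call, and the ZNF family (106 of 502 lower) stands at the bottom. Lists and families were chosen with earlier results of these data known.

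The machinery that carries the hormone's signal changed little at the transcript level. The lists and symbol families here and below were chosen with earlier results of these data known. Their shares beside those of all genes are therefore descriptive and no test. Lists also overlap, with 89 genes in more than 1, so their counts are not independent. Of 41 measured genes of the receptor, G protein, phospholipase C, calcium release, kinase and CREB steps, none rose and 3 fell in the limma test (7.32%), with a median change of 0.01; at an unadjusted p of 0.05, 2 were higher and 3 lower. AGTR1, the receptor itself, lay at 11.92, 12.12 and 11.98 with DMSO and at 11.69, 11.68 and 11.69 with angiotensin II, a fall of 1.25-fold (-0.32 ± 0.04 SE, adjusted p = 0.000124). The groups did not overlap, as in 17.6% of all genes tested. ITPR2, a calcium release channel, fell by 0.37 and GNA13, a G protein alpha subunit, by 0.26; both calls ended when all probe sets of the gene were averaged (adjusted p = 0.13 and 0.20). No call was made for GNAQ (log2 change -0.07, 95% interval -0.17 to 0.04), PLCB1 (-0.02, interval -0.16 to 0.12) and MAP2K1 (0.01, interval -0.07 to 0.09).

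Some transcription factors outside the immediate early list were among the largest rises. MITF, a basic helix-loop-helix leucine zipper factor best known from melanocytes, lay at 9.63, 9.60 and 9.49 with DMSO and at 12.55, 12.43 and 12.57 with angiotensin II, 7.70-fold higher (2.94 ± 0.05). Of 34 measured genes of the MITF family and the lysosome, MITF alone rose and none fell in the limma test; at an unadjusted p of 0.05, 7 were higher and 3 lower. NFIL3, a repressor of D-box genes, rose 7.54-fold, from 8.72, 8.57 and 8.78 to 11.65, 11.59 and 11.58. DBP, an activator that binds the same D-boxes, fell by 0.49, a call that ended when _x_at and _s_at probe sets were left out (adjusted p = 0.88). SERTAD1, a cofactor of E2F transcription, went from 9.31, 9.17 and 9.24 to 11.42, 11.33 and 11.40, and CITED2, a CBP/p300-binding cofactor needed for adrenal development, from 8.41, 8.39 and 8.49 to 10.49, 10.21 and 10.34. In MITF, NFIL3, SERTAD1 and CITED2 the groups did not overlap, with a spread within groups that was small against the change. This is no evidence of its own, because the rule by which genes are named favoured large changes without overlap. VDR, the vitamin D receptor, rose by 1.21 ± 0.08, and NR2F1 (COUP-TFI), an orphan nuclear receptor, by 0.94, from a dim start between 4.92 and 5.16.

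Transcriptional repressors moved in both directions. Of 45 measured repressors and corepressors 17 rose (37.8%, against 3.36% of all genes) and 7 fell (15.6%, against 2.76%), with a median of 0.14. NFIL3 and CITED2 led the rises, followed by NAB2, the corepressor of EGR factors (1.14), and by HEY2 (0.90) and BHLHE40 (0.90), helix-loop-helix repressors. Falls were led by HES1, a Notch-driven repressor, which went from 9.50, 9.34 and 9.37 to 8.15, 7.82 and 8.19. Without _x_at and _s_at probe sets the sign of HES1 turned (0.068, adjusted p = 0.87) on the probe set then left, at a mean level of 5.23. ID3, an inhibitor of helix-loop-helix factors, fell by 0.99 ± 0.08, RUNX1T1, a corepressor, by 0.76, and SNAI2, a zinc finger repressor, by 0.47. HES1 and HEY2, of one repressor family, changed in opposite directions, though the HEY2 call also ended without those probe sets. In the Notch pathway as a whole 3 of 35 genes rose (8.57%) and only HES1 fell (2.86%), with NRARP, a Notch feedback inhibitor, 1.24 higher.

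A share of the cAMP pathway's targets rose. Of 28 measured cAMP and CREB targets 8 rose (28.6%) and 1 fell, PRKAR2B at -0.15, a call lost without DMSO replicate 3 or angiotensin II replicate 2. SIK1, a kinase that restrains CREB coactivators, went from 7.21, 6.81 and 7.25 to 9.93, 9.83 and 9.93, and PDE4B, which degrades cAMP, from 6.60, 6.63 and 6.82 to 8.12, 7.97 and 8.13. The SIK1 call rests on its _s_at probe set and ended without that type (adjusted p = 0.37). RGS2, which shortens Gq signals, rose by 0.80.

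The full palindromic cAMP response element, TGACGTCA, was searched on both strands in the 250 bases upstream of the start of each gene in RefSeq (GRCh38.p14), where 15384 of the 19775 genes had a window. It was found in 2.38% of all windows and in 3.13% of those of genes above the median level. Among the genes that rose it was in 5.20% of 538 windows, among those that rose at least 2-fold in 4 of 89, and among those that fell in 2.19% of 456. The window keeps every match within 250 bases of the start, so closeness does not set genes apart. In CNNM4, a smaller riser, the element began 24 bases before the start. The 4 strong risers with the element are shown for the size of their rise, as 60 bases of the gene's strand with the element in capitals:

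MAFF (chr22:38201914-38201973, plus strand): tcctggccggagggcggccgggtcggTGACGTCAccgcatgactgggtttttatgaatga

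PPP1R15A (chr19:48872337-48872396, plus strand): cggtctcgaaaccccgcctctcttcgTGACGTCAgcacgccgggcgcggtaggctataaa

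DUSP1 (chr5:172771287-172771346, minus strand): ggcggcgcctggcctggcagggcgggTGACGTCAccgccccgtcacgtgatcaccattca

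GPR3 (chr1:27392560-27392619, plus strand): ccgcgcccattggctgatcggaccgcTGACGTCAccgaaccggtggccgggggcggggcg

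The element began 54 bases before the start in MAFF, a small MAF factor, 58 in PPP1R15A, a regulatory subunit that dephosphorylates eIF2 alpha, 125 in DUSP1 and 36 in GPR3, a receptor that raises cAMP by itself. PPP1R15A rose from 8.75, 8.55 and 8.69 to 10.52, 10.41 and 10.49, DUSP1 from 9.27, 9.26 and 9.39 to 10.62, 10.66 and 10.62, and GPR3 from 7.09, 6.52 and 6.91 to 7.99, 7.63 and 7.98. The short form TGACG, which the full element also contains, was in 25.9% of all windows, 31.5% of those above the median level, 36.4% of those of risers and 27.6% of those of genes that fell. A CACGTG E-box was in 9.48% of windows of risers and 9.43% of those of fallers, against 9.43% above the median level. The core GGAAAA of NFAT sites was in 14.7% and 19.7%, against 17.7%. The AP-1 element TGACTCA was in 3.90% of windows of risers and 1.54% of those of fallers, against 2.12% above the median level. The CArG box of serum response factor was in 2.04% and 0.877%, against 0.994%. Over all windows the AP-1 element was in 3.18% and the CArG box in 1.14%. Among genes that rose at least 2-fold each was in 1 of 89 windows. The NR4A element AAAGGTCA was in 0.186% and 0.439% of windows of risers and fallers, against 0.606% above the median level. A match describes letters in this window only.

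Feedback inhibitors of kinase signalling rose in part, and the ERK phosphatase fell. Of 28 measured genes of MAP kinase feedback 9 rose (32.1%) and 1 fell. SPRY2, an inhibitor of receptor tyrosine kinase signalling, went from 8.30, 8.18 and 8.25 to 10.15, 10.03 and 10.30, and ERRFI1, an inhibitor of the EGF receptor, rose by 1.73 ± 0.05. IER3 rose by 2.03 and the dual-specificity phosphatases DUSP2, DUSP1 and DUSP14 by 1.41, 1.32 and 0.96. DUSP6, the phosphatase most selective for ERK, went the other way, from 11.27, 11.03 and 11.17 to 9.41, 9.41 and 9.40, a 3.36-fold fall. Its other probe sets gave falls of 1.66 and 1.51. Among 24 dual-specificity phosphatases by symbol, 6 rose and DUSP6 alone fell; without angiotensin II replicate 3 a second one was called lower.

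Regulators of G protein signals were mixed. Of 36 measured genes 5 rose (13.9%, against 3.36% of all genes) and 2 fell (5.56%, against 2.76%), with a median of 0.01. PTGER4, a prostaglandin E2 receptor that raises cAMP, rose 4.26-fold by its brightest probe set (4.60, 4.58 and 4.94 with DMSO, 6.94, 6.44 and 7.02 with angiotensin II). Its other probe set had a change of -0.10 and no call, and that one was the brighter on the CP-529414 arrays. The falls were of ARRDC4 and ARRDC3, alpha-arrestins like TXNIP, by 0.94 ± 0.08 and 0.50 ± 0.08.

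Secreted growth factors and cytokines rose in number. Of 46 measured genes 11 rose (23.9%) and 2 fell (4.35%). HBEGF, a membrane-anchored ligand of the EGF receptor, went from 6.78, 6.59 and 6.79 to 9.41, 9.15 and 9.36, a rise of 2.58 on the log2 scale. LIF, a cytokine of the IL-6 family, rose 5.25-fold (5.69, 5.57 and 5.68 to 8.17, 7.96 and 7.99), and INHBA, the subunit of activin A, 4.83-fold (5.92, 5.55 and 6.04 to 8.28, 7.73 and 8.32). In each the lowest angiotensin II array lay far above the highest DMSO array, though the naming rule favoured genes without overlap. BDNF, a neurotrophin, rose by 1.47, DKK1, a secreted WNT antagonist, by 1.12, and VEGFA, an angiogenic factor, by 0.53. BMP4 fell by 0.43 ± 0.06 and NDP (norrin), a ligand of a WNT receptor, by 0.46; without angiotensin II replicate 3 the list had 4 falls.

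Besides LIF, a receptor and inhibitors of the IL-6 family rose. Of 37 measured genes of cytokine signalling 10 rose (27.0%) and 1 fell (SOCS4, -0.17, a call lost in 4 of the 6 fits that left out an array, those without any 1 of DMSO replicates 1 and 3 and angiotensin II replicates 1 and 2). IL6R, the receptor of interleukin 6, went from 5.22, 4.91 and 5.32 to 6.87, 6.41 and 6.56, and SOCS1, an inhibitor of JAK kinases, from 8.21, 7.85 and 8.23 to 10.05, 10.09 and 10.04. SOCS3, the feedback inhibitor of the shared receptor chain, rose by 1.51 ± 0.14; on the probe set that was brightest with CP-529414 it had no call (adjusted p = 0.71). The shared chain IL6ST (log2 change -0.05, interval -0.13 to 0.04) and the kinase JAK1 (0.01, interval -0.12 to 0.13) did not pass the test. In the NF-kappa-B list 6 of 30 rose and VCAM1, an adhesion molecule, fell by 0.36. NFKBIZ, a nuclear inhibitor protein that steers NF-kappa-B, led with 3.64 and REL, a subunit, rose by 1.06. CXCL2, a neutrophil chemokine, rose by 2.54 on an _x_at probe set, and its 2 other probe sets, at 3.86 and 3.49, gave -0.02 and -0.01.

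Genes that limit the life or translation of mRNA rose without a fall. Of 25 measured genes 10 rose (40.0%, against 3.36% of all genes) and none fell, with a median change of 0.12. At an unadjusted p of 0.05, 11 were higher and 5 lower. As with the other lists, earlier results were known when the members were chosen, so the share is descriptive. Leaving out DMSO replicate 1 or 3 brought 1 call lower. CPEB2, which controls translation through the poly(A) tail, went from 6.57, 6.17 and 6.71 to 9.12, 9.19 and 9.34, and its relative CPEB4 rose by 1.02 ± 0.05. ZFP36 (tristetraprolin), which marks AU-rich mRNAs for decay, went from 8.97, 9.15 and 9.04 to 11.21, 11.38 and 11.30, and ZFP36L2 rose by 1.19. TENT5A, a noncanonical poly(A) polymerase outside the list, rose 7.30-fold, from 7.01, 6.73 and 7.08 to 9.87, 9.58 and 9.98. Its other probe sets, neither of the _s_at type, gave 3.02 at a level of 5.91 and 0.16 at 6.07. The brighter of these, with 0.16, stood for TENT5A when _s_at probe sets were left out. BTG1, an antiproliferative deadenylation cofactor, had a change of -0.14 and no call.

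Of 32 measured genes of growth arrest 8 rose, 4 fell (12.5%) and 20 had no call. The stress-sensor family of GADD45 rose in all 3 members: GADD45A from 10.13, 10.08 and 10.09 to 12.11, 11.92 and 11.95, GADD45B by 1.91 and GADD45G by 1.47. KLF9, a repressor of the Kruppel-like family, rose by 1.22. DDIT4L, an inhibitor of mTOR signalling, fell from 12.17, 12.19 and 12.23 to 11.11, 10.97 and 11.17, and the cyclin-dependent kinase inhibitor CDKN1B by 0.52 ± 0.05. Of 34 apoptosis regulators 7 rose (20.6%) and none fell in the limma test, nor was any lower at an unadjusted p of 0.05 (0 genes). MCL1, an anti-apoptotic protein, went from 11.91, 11.89 and 11.90 to 12.94, 12.85 and 12.92, TNFRSF12A, the receptor of the cytokine TWEAK, rose by 1.36, and PMAIP1 (NOXA), which opposes MCL1, by 0.48. Of 54 cell cycle genes 2 rose (3.70%, against 3.36% of all genes) and 4 fell (7.41%, against 2.76%), with a median of -0.07. Their median level was 10.2, in the brightest bin, where 6.47% of genes rose and 5.22% fell. At an unadjusted p of 0.05, 2 of the cell cycle genes were higher and 14 lower.

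Targets of the coactivator YAP rose in part. Of 24 YAP and TEAD targets 7 rose (29.2%, against 3.36% of all genes) and CCN3 fell by 0.16. CCN1, a matricellular protein, went from 10.38, 10.28 and 10.32 to 12.66, 12.66 and 12.61, F3, tissue factor, rose by 1.67 and CCN2 by 1.29. ARC, a synaptic protein of the cytoskeleton, rose 5.49-fold (5.77, 5.65 and 5.56 to 8.08, 7.91 and 8.36), as 1 of 7 risers among 38 neuronal activity genes.

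**Figure D3:**
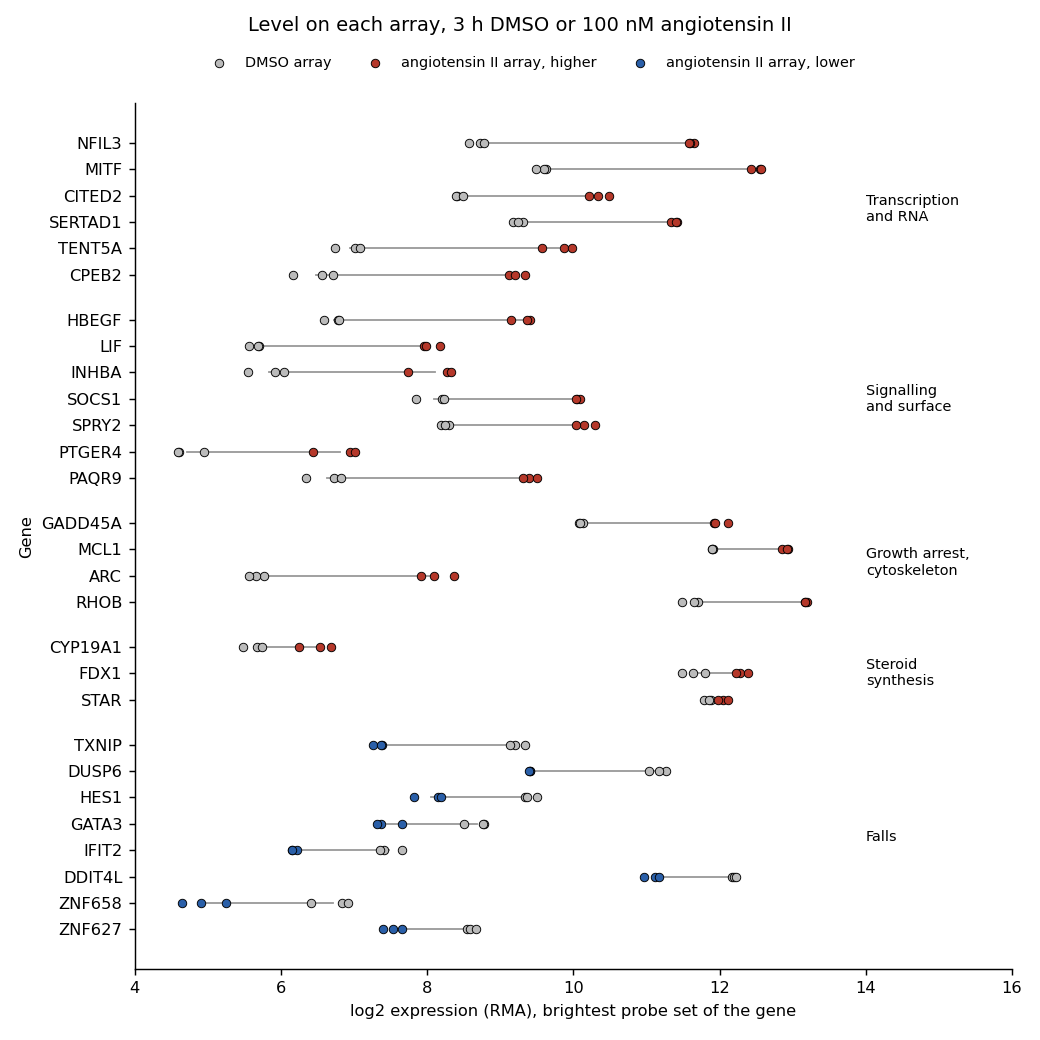
Each row is a gene and each point an array, with log2 signal on the x axis: grey points are the 3 DMSO arrays, red or blue points the 3 angiotensin II arrays where these are higher or lower, and the line joins the group means. In every gene drawn the groups are apart. This is no evidence of its own, because they were apart in 1199 of the 1210 called genes and the naming rule favoured such genes. NFIL3 moves from 8.57 to 8.78 up to 11.58 to 11.65, and STAR by the least (0.20).

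Steroid synthesis itself had 3 rises among 27 measured genes (11.1%, against 3.36%) and no fall in the limma test; at an unadjusted p of 0.05, 4 were higher and 1 lower. FDX1, the ferredoxin that feeds electrons to mitochondrial P450 enzymes, went from 11.48, 11.80 and 11.64 to 12.28, 12.22 and 12.39, 1.58-fold higher (0.66 ± 0.06, adjusted p = 2.58e-06), and its other probe sets rose by 0.50 and 0.57. STAR, which brings cholesterol to the inner mitochondrial membrane, rose 1.15-fold, from 11.79, 11.88 and 11.86 to 12.05, 11.98 and 12.11 (0.20 ± 0.04, adjusted p = 0.00304), a call that ended without the intensity trend (adjusted p = 0.089). CYP19A1, aromatase, went from 5.67, 5.48 and 5.73 to 6.53, 6.25 and 6.68 (0.86 ± 0.11, adjusted p = 0.000132). Of its 6 other probe sets 2 were called higher, at 1.29 and 0.79, and the remaining 4 gave 0.02 to 0.24. The side-chain cleavage enzyme CYP11A1 (0.02, interval -0.07 to 0.11), CYP17A1 (0.09, interval -0.04 to 0.21) and HSD3B2 (-0.12, interval -0.26 to 0.01) did not pass the test. CYP11B2, aldosterone synthase, lay at 5.41, 5.82 and 5.86 with DMSO and at 5.95, 5.62 and 6.28 with angiotensin II; the groups overlapped and the interval ran from -0.07 to 0.58 (adjusted p = 0.46). CYP11B1 was dim in both groups, from 4.32 to 4.52.

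Regulators of adrenal identity split. Of 34 measured genes 6 rose (17.6%, against 3.36% of all genes) and 4 fell (11.8%, against 2.76%), with a median of -0.02. GATA6, a zinc finger factor of adrenal development, fell from 8.97, 8.74 and 9.05 to 8.24, 8.04 and 8.42 (-0.68 ± 0.10), though its dimmer probe set, at 5.77, gave 0.11. NR5A1 itself had a change of -0.04 (interval -0.34 to 0.26). GATA3, a related factor, fell from 8.78, 8.50 and 8.76 to 7.37, 7.31 and 7.65, and its other probe sets fell by 0.53 and 1.31. MC2R, the ACTH receptor, rose by 0.41 ± 0.10 (adjusted p = 0.0203), a call lost without DMSO replicate 3 or angiotensin II replicate 2 or 3 (adjusted p up to 0.085). In the WNT pathway 2 of 40 rose and 7 fell (17.5%, against 2.76%): SP6, a zinc finger factor, by 0.71, DAB2, a glomerulosa marker, by 0.32, and AXIN2, a feedback target, by 0.27, the last with no call when its probe sets were averaged (adjusted p = 0.09). Of 40 TGF-beta and BMP genes 5 rose (12.5%) and 5 fell (12.5%), with a median of -0.01. INHBA led the rises, and the falls were led by ID3 at -0.99, SMAD1 at -0.44 and ID2 at -0.28. Without angiotensin II replicate 1 those falls were 3, and without DMSO replicate 1 or angiotensin II replicate 3 the rises were 3.

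Of 35 measured genes of glucose uptake and glycolysis 5 rose (14.3%) and TXNIP fell. TXNIP, a thioredoxin-binding arrestin that holds back glucose transporters, went from 9.20, 9.13 and 9.34 to 7.38, 7.25 and 7.36, and its other probe sets fell by 1.37 and 1.95. The transporters SLC2A3 and SLC2A1 rose by 0.56 and 0.46, PFKFB3, which makes the activator of phosphofructokinase, by 1.03, and PDK4, a kinase that shuts off pyruvate dehydrogenase, by 0.50. The PDK4 call ended when its probe sets were averaged (adjusted p = 0.10) and the SLC2A1 call without _x_at and _s_at probe sets (adjusted p = 0.53). PFKP, a phosphofructokinase that was outside the naming rule and added after its value was seen, rose by 0.26, a call lost in 7 alternatives. The enzymes GAPDH (-0.01), PKM (-0.01) and TPI1 (-0.07) had no call.

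In the unfolded protein response 8 of 26 rose (30.8%) and ERN1 fell by 0.22, a call that held without DMSO replicate 1 or angiotensin II replicate 3 but not in the other 4 fits with an array left out. Besides PPP1R15A these were led by DDIT3 (0.84) and DNAJB9 (0.57), a transcription factor and a cochaperone, while the chaperones HSPA5 (0.01) and PDIA6 (-0.05) had no call. Of 33 ATF4 targets and amino acid response genes 11 rose (33.3%, against 3.36% of all genes) and 3 fell (9.09%, against 2.76%), with rises of 0.71 or less. Among hypoxia genes 5 of 24 rose (20.8%), led by ANKRD37 at 1.68 ± 0.15, and HIF1A had a change of 0.10 with no call. Heat shock chaperones rose in 4 of 21 genes, of which DNAJB1, a cochaperone of HSP70, rose most (0.76); without angiotensin II replicate 1 there were 2. In the circadian list 6 of 22 rose (27.3%) and 2 fell (9.09%), DBP and RORB. Of the risers, NFIL3, BHLHE40 and BHLHE41 are also in the repressor list. The rises were 2 with DMSO replicate 1 or angiotensin II replicate 3 left out, and 3 without DMSO replicate 2 or angiotensin II replicate 1. Of 40 interferon-induced genes GBP1, a guanylate-binding protein, rose by 0.49 and 3 fell, all of the IFIT family: IFIT2 from 7.40, 7.36 and 7.66 to 6.16, 6.21 and 6.15, IFIT3 by 0.77 and IFIT1 by 0.46.

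None of 59 cytosolic ribosomal proteins and none of 48 protocadherins was called in either direction by limma, where 3.36% of all genes rose and 2.76% fell. The median level of the protocadherins was 5.25, in the bin next to the dimmest, where 1.94% rose and 1.48% fell. No call among 48 genes lies near those shares. For the ribosomal proteins the median level was 13.5, in the brightest bin, where 6.47% rose and 5.22% fell. At an unadjusted p of 0.05, 6 ribosomal proteins and 2 protocadherins were lower and 0 higher. Of the 19775 genes tested 3259 passed that p, both directions together. Of 76 respiratory chain subunits 2 fell (NDUFA5 at -0.27 and COX5A at -0.09), of 34 proteasome subunits 1, and of 376 genes with a solute carrier symbol 14 rose (3.72%) and 2 fell, SLC1A4 and the antisense RNA SLC25A5-AS1. With an array left out, the respiratory chain falls were 1 or 3, the proteasome fall was lost in 4 of 6 fits, and the solute carrier falls ran from 1 to 6. At an unadjusted p of 0.05, 2 respiratory chain subunits were higher and 13 lower, and of 77 mitochondrial ribosomal proteins, of which 2 were called lower, 0 were higher and 18 lower. All genes at that p are not split by direction here, so these falls cannot be set against a background share. Of 1858 long intergenic, host and antisense RNAs by symbol 22 rose (1.18%) and 16 fell (0.861%), against 3.36% and 2.76% of all genes; their median level was 4.45, in the dimmest bin, where 0.344% of genes rose. Without angiotensin II replicate 3 the rises were 13, and without any 1 of DMSO replicates 1 and 3 and angiotensin II replicates 1 and 2 the falls were 5 to 10. LINC00473, a cAMP-responsive RNA, went from 6.32, 6.16 and 6.52 to 8.04, 8.09 and 8.19, and DLGAP1-AS6 rose by 2.08.

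The falls had 1 large component, the zinc finger genes whose symbol begins with ZNF. Most of them encode repressors that bind DNA through arrays of C2H2 fingers, and many carry a KRAB domain that recruits TRIM28. Of 502 measured ZNF genes 106 fell (21.1%, against 2.76% of all genes and 2.28% of genes outside the family) and 13 rose, so that symbols of this kind made up 19.4% of all genes that fell. Antisense and divergent transcripts with a ZNF symbol numbered 33, of which 1 rose (ZNF674-AS1) and 0 fell, which leaves 106 falls and 12 rises in 469. The family's median change was -0.10, and 69.9% of its members had a change below 0, against 45.5% of other genes. The median of the family's falls was 1.41-fold, against 1.27-fold for all genes that fell, and 3 reached 2-fold. ZNF658 went from 6.83, 6.40 and 6.91 to 4.90, 4.64 and 5.25, ZNF624 from 5.94, 5.55 and 6.05 to 4.72, 4.81 and 4.88, and ZNF766 from 8.10, 7.93 and 8.21 to 7.28, 7.01 and 7.20. ZNF627 fell by 1.08 on an _s_at probe set and had no call without that type (adjusted p = 1.0). The riser ZNF331 had a change of 1.22 and ZNF697 of 1.41.

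As deviations from each gene's mean over the 6 arrays, the median ZNF gene lay at 0.06, 0.01 and 0.11 on the DMSO arrays and at -0.05, -0.08 and -0.02 on the angiotensin II arrays, with no overlap. The 19273 other genes lay between -0.02 and 0.01 on all 6. Much of the family sits in clusters on chromosome 19, where 65 of 234 ZNF genes fell (27.8%), against 41 of 268 elsewhere (15.3%). Of the other genes on chromosome 19, 9 of 1086 fell (0.829%), with a median change of 0.03. The count depended on the arrays: without DMSO replicate 3 it was 70, and over the other fits with an array left out it ran from 78 to 110. It was 95 with arrays centred, 121 with a second quantile normalisation and 84 of 446 without _x_at and _s_at probe sets, which matter here because close relatives can share probes. A further set of zinc finger genes, those named ZBTB, ZSCAN, ZKSCAN and ZFP and grouped after their values had been seen, held 19 falls and 4 rises in 93. ZSCAN2 fell by 1.03, ZBTB24 by 0.89 and ZKSCAN4 by 0.84; without DMSO replicate 3 this set had 12 falls, and without DMSO replicate 2 or angiotensin II replicate 1 or 3 it had 2 rises.

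**Figure D4:**
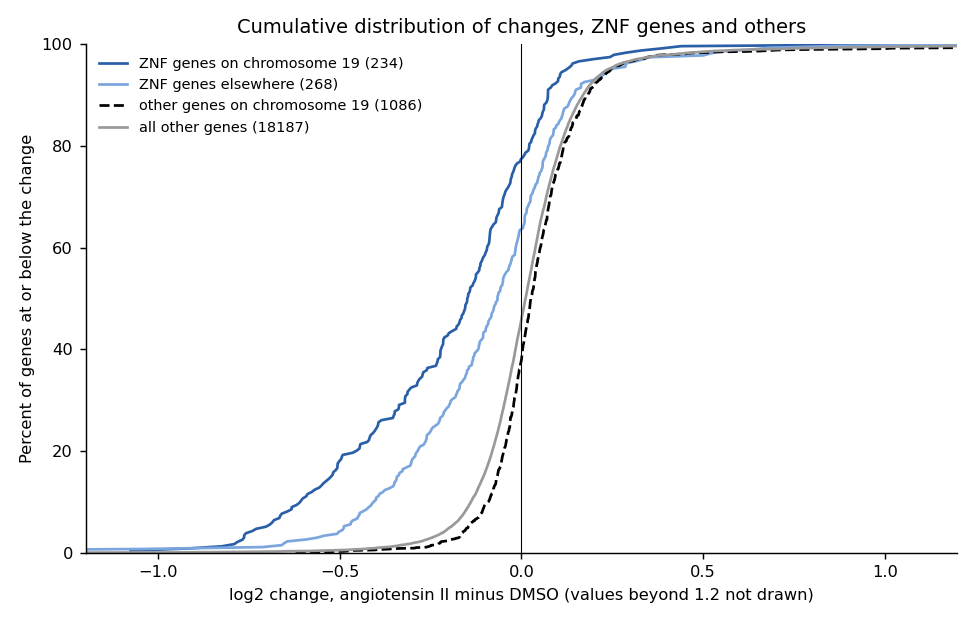
Cumulative distributions of the log2 change (angiotensin II minus DMSO, x axis; percent of genes at or below it, y axis) for ZNF genes on chromosome 19 (234), ZNF genes elsewhere (268), other genes on chromosome 19 (1086) and all other genes. The ZNF curves lie to the left, most for chromosome 19 (median -0.15), whereas other chromosome 19 genes (median 0.03) lie with the rest.

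BBS12, a chaperonin-like protein of the Bardet-Biedl group, went from 5.53, 5.53 and 5.91 to 4.49, 4.35 and 4.52, and 3 of 28 Bardet-Biedl and intraflagellar transport genes fell (10.7%, against 2.76% of all genes), 1 without DMSO replicate 3. TRIM32, a ubiquitin ligase, fell from 10.35, 10.39 and 10.41 to 9.49, 9.49 and 9.58, and BCL11A, a zinc finger repressor, by 0.86. GTF2H2B, a copy of a TFIIH subunit gene, fell from 6.71, 6.99 and 6.71 to 5.01, 5.82 and 5.56; its near-identical relatives can share probes. FRG1BP, a pseudogene copy, fell by 0.95, a call lost without angiotensin II replicate 1 (adjusted p up to 0.061).

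Genes with more than 1 probe set gave a check on the calls. The 665 genes that rose held 245 with a single probe set and 420 with more, and the latter had 853 other probe sets, of which 83.0% changed in the same direction and 240 passed the test in it. The 545 that fell had 673 other probe sets in 341 genes, with 81.7% in the same direction and 95 called. Among genes with no call 58.6% of other probe sets shared the sign. In 309 of the 420 rising genes and 242 of the 341 falling ones all other probe sets shared the sign, and in 32 and 26 none did. The share of other probe sets with the same sign rose with their level, from 69.2% below a log2 signal of 5 to 94.7% between 8 and 9 and 93.4% above 9. Dim probe sets also showed less of the change: below 5 the median size was 0.10 where the brightest probe set of the same genes gave 0.43.

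MITF shows the pattern of a call that all probe sets carry, with 2.94, 2.94 and 2.03 at levels of 10.96, 10.68 and 4.27. HBEGF shows the common mixed case, with 2.58 and 2.35 on its brighter probe sets and 0.13 and 0.05 on its dimmer ones, at 5.49 and 4.13. ZFP36L2 gave 1.19, 1.06 and 1.33 at levels of 8.97 and above, and -0.05 at 5.74. A probe set was called against the direction of its gene's call in 3 genes. RBM15, an RNA-binding adaptor of m6A methylation, rose by 0.72, 0.51 and 0.44 on its brightest probe sets, and another, at 6.44, fell by 1.31 (adjusted p over probe sets 0.00231). PAFAH1B1, a regulator of dynein, had -0.21 on its brightest and 0.44 on the next, and ETNK1, an ethanolamine kinase, had -0.23 on its brightest and 0.45 on a dimmer one.

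**Figure D5:**
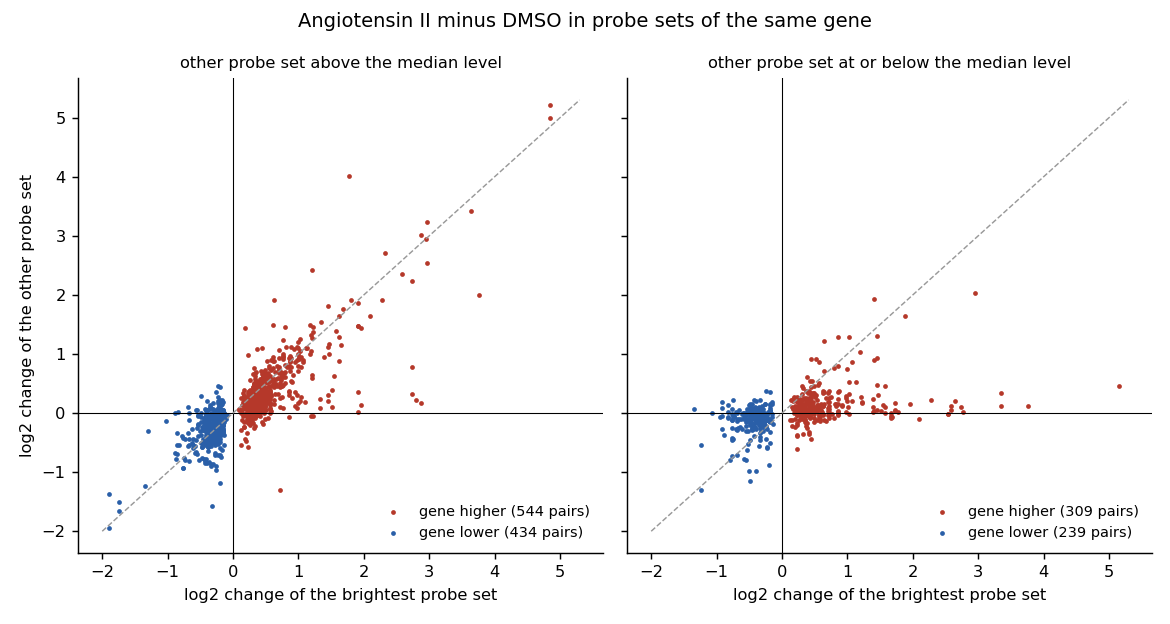
Each point is a pair of probe sets of one gene called with angiotensin II, with the log2 change of the brightest on the x axis and of the other on the y axis; the left panel holds other probe sets above the median level (5.57), the right panel those at or below it, and the dashed line marks equal change. In the left panel 88.6% of pairs of risers share the sign and many lie near the line, while in the right panel most lie near 0.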

How the data were processed

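The authors deposited 1 table of log2 values for 9 Affymetrix arrays, 3 of each group; per the submitters' processing notes it was made with RMA, whose software is not named there and its version not given in the sources used here. Of 54675 probe sets 62 controls were left out; 41091 carried 1 gene symbol, 1801 several and 11721 none in the platform annotation, and each of 19775 genes was read from its brightest single-symbol probe set by the mean of the 9 arrays. limma 3.58.1 (R 4.3.3) fitted 3 group means to the 9 arrays, with 6 residual degrees of freedom, an intensity trend in eBayes and Benjamini-Hochberg adjustment over all genes; a call is an adjusted p of 0.05 or less, an error after ± is a standard error unless marked SD, and intervals are 95%. Changes are angiotensin II minus DMSO on the log2 scale. The code was tested on simulated data. The members, 36 gene lists and 26 symbol families were chosen with earlier results of these data known, and 98 of 1242 list members are not analysed here. The result of 1 list is not reported here.

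Genes are named by rule: outside the immediate early list, the 30 largest rises and 30 largest falls called without overlap; of each list and family up to 4 called members a direction; of each list the 4 brightest uncalled; all members of the signal chain and steroidogenesis lists; markers; genes whose probe sets disagree; and, by role, all genes changed 2-fold. Alternatives changed the normalisation, probe set choice, level filter, variance model, array weights, covariate, threshold or arrays, 1 at a time.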

Additional observations from a re-analysis of the deposited data

Results flagged for a closer look

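Probe sets outside the gene comparison also carried calls in the same limma test. Of the 11721 with no symbol, 156 were called with angiotensin II (1.33%), 94 higher and 62 lower, of which 32 rose and 8 fell at least 2-fold. Of the 1801 with several symbols, 69 were called (3.83%), 44 higher and 25 lower. Among single-symbol probe sets 3.31% were called.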

How the results depend on the processing

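Of the 1210 calls, 543 held, in the same direction, in every alternative fit in which the gene had a value; of the 846 genes with a value in each of them, 354 did. With array weights, where angiotensin II replicate 1 took a weight of 6.154, the calls were 2712, 1342 higher and 1370 lower; the ZNF calls were then 25 higher and 171 lower. At a threshold of 0.01 there were 767 calls and 291 falls, 65 of them ZNF genes. Falls numbered 323 without the intensity trend and 338 with only the 6 arrays. With an array left out, the calls ran from 956 to 1171, the rises from 528 to 685, the falls from 328 to 631, the ZNF rises from 10 to 14 and the ZNF falls from 70 to 110. Above the median level 70 ZNF genes fell; without _x_at and _s_at probe sets 8 rose. The sign turned on the CP-529414-brightest probe set of PTGER4 (-0.10), without _x_at and _s_at probe sets in HES1 (0.068), CXCL2 (-0.024), SLC1A4 (0.044) and ZNF345 (0.44 to -0.43, adjusted p = 0.035 and 0.0402, the only gene called in both directions), and on the mean of probe sets in SOCS4 (0.025) and ETNK1 (0.048). Other probe sets above the median level shared the sign in 88.6% for genes that rose and 88.9% for genes that fell, and those not _x_at or _s_at in 77.7% for the latter. Causes were not tested. No paired analysis was possible because the labels give no shared replicate numbers. The smallest change called was 0.257 in the dimmest of the 4 bins by level, which limits what dim probe sets can show.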
